A study of Bos taurus with 4 samples.

Results

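The 10 genes described here are the glutathione peroxidases GPX1, GPX2, GPX3 and GPX4 and 6 genes known as targets of the transcription factor NRF2, namely TXNRD1, NQO1, HMOX1, GCLC, GCLM and SRXN1. They are defined by gene symbol, and the set was proposed with earlier results of these data known. Each symbol had exactly 1 row among the 29792 rows of the count files, and all 10 rows were among the 22200 with at least 1 read in any library. The 4 libraries, 1 per group, were made from intestine, from muscle and from organoids at passage 5 (P5) and passage 10 (P10). The strain is Hanwoo cow, a Korean breed, and the animals were older than 24 months. The organoids were grown from jejunal crypts embedded in Matrigel, a basement membrane gel, in IntestiCult medium. The labels give neither the animal behind each library nor the muscle that was sampled, and no treatment is labelled. With 1 library a group there is no replicate, so no test between groups was possible, and all intervals and standard errors cover counting error only. QuantSeq, which sequences the 3′ ends of polyadenylated RNA, was used for every library.

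Glutathione peroxidases reduce hydrogen peroxide or lipid hydroperoxides with electrons from glutathione. All 4 measured here and thioredoxin reductase 1, the product of TXNRD1, are selenoproteins, in which the active site carries the amino acid selenocysteine. NRF2, encoded by NFE2L2, is held at low levels by KEAP1 and, when released by oxidants or electrophiles, binds antioxidant response elements of genes for glutathione synthesis, thioredoxin recycling and quinone reduction. In the gut these enzymes act against oxidants from food, bile, microbes and inflammation. GPX2 is known as the glutathione peroxidase of the gastrointestinal epithelium, and GPX3 as the secreted enzyme of plasma.

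The libraries held between 12917720 and 17776273 reads. Levels are given as CPM, a gene's reads scaled to the library total, with exact 95% binomial intervals. No molecular identifiers are described, so reads copied by PCR are not independent molecules. Differences are given on the log2 scale of quantile-normalised counts with 1 added, beside folds of CPM. The added 1 shrinks the differences of genes with few reads, but the normalisation can widen them. A count of 3 reads had a log2 value of 1 in intestine, 2.09 at P5 and 2.86 at P10. Enterocyte markers summed to 30914 CPM in intestine, 4834 at P5 and 233 at P10, where ALPI, APOA1 and APOA4 had no reads. ALPI had no reads at P5 either. The list did not move as one, since FABP1 made up most of the sum in intestine, and at P5 6 of the 9 markers were at least 2-fold lower and 2 higher. ANPEP had 125 reads in intestine, 28104 at P5 and 243 at P10, and SI had 2288, 6210 and 797. The 7 epithelial markers (EPCAM, CDH1, KRT8, KRT18, KRT19, VIL1 and CLDN7) all had reads in both organoid libraries, and summed to 1859 CPM in intestine, 10048 at P5 and 9389 at P10. The 7 skeletal muscle markers summed to 38816 CPM in muscle and to between 1.97 and 3.38 CPM elsewhere. RN18S1, which encodes 18S ribosomal RNA, took 23.6% of the reads in muscle and between 0.264% and 4.81% in the other libraries, which lowers the CPM of every other gene in muscle.

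At P5, 6 of the 10 genes (GPX2, GPX4, TXNRD1, NQO1, GCLM and SRXN1) exceeded intestine by at least 2-fold, beside 24.9% of the 17783 rows with at least 10 reads in either library. Another 3 (GPX1, GPX3 and HMOX1) were at least 2-fold lower, beside 22.8% of all rows. At P10, 4 (GPX2, GPX4, TXNRD1 and NQO1) were at least 2-fold higher, beside 28.0% of all rows, and 2 (GPX3 and HMOX1) at least 2-fold lower, beside 26.1%. The median log2 difference of the 10 genes was 1.21 at P5 and 0.11 at P10, and that of all rows was 0.11 in both comparisons. The comparisons share the intestine library, so they are not independent of each other. The balance of all rows moved with the scaling. Of the rows past 2-fold at P5 52.3% were higher, against 40.5% with edgeR's TMM normalisation and 41.4% with upper-quartile normalisation, and at P10 51.7% were higher, against 41.0% and 40.7%. The median of all rows at P10 moved from 0.11 to -0.12 with TMM. With TMM, upper-quartile normalisation and library totals, with or without RN18S1, 5 of the 10 genes were higher at P5, without GCLM. The share of all rows was then between 18.1% and 21.5%. With library totals, with or without RN18S1, 2 genes were lower at P5, without HMOX1, beside 24.6% and 24.5% of all rows. In bulk RNA, a different share of cells of a type and a different amount of RNA per cell cannot be told apart.

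**Figure D1:**
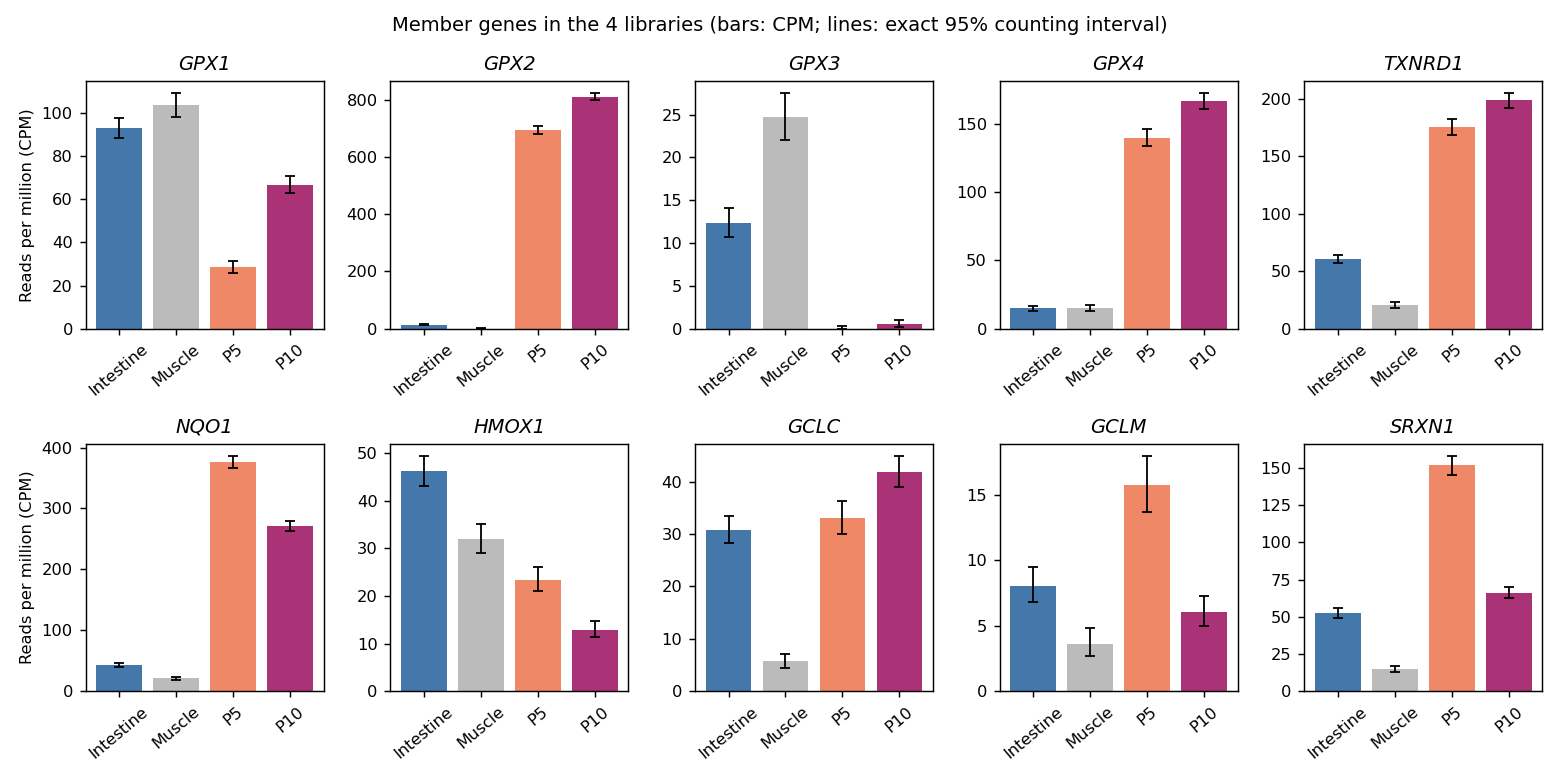
Level of each of the 10 genes in CPM (bars, each panel with its own axis from 0) in the 4 libraries, with exact 95% counting intervals as lines. GPX2, GPX4, TXNRD1 and NQO1 were highest in both organoid libraries, whereas GPX3 had 0 reads at P5 and HMOX1 was highest in intestine on this scale, but in muscle on the quantile-normalised scale.

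GPX2, the epithelial glutathione peroxidase, had 249 reads in intestine, 0 in muscle, 9440 at P5 and 14407 at P10. These are 14.0 CPM (12.3 to 15.9), a limit of 0.232 CPM set by 3 reads in muscle, 694 CPM (680 to 708) and 813 CPM (799 to 826). Both organoid libraries were therefore far above intestine, and muscle had no detectable RNA of the gene. The log2 difference from intestine was 5.72 (counting standard error, SE, 0.10) at P5 and 5.80 (SE 0.10) at P10. On CPM, GPX2 was 49.6-fold (43.7 to 56.4) and 58.0-fold (51.2 to 66.0) higher. Each log2 difference was above that of the highest of the 7 epithelial markers, KRT18, which was 3.57 at P5 and 5.13 at P10. The summed epithelial markers were 5.41-fold higher at P5 and 5.05-fold higher at P10 than in intestine. The part of epithelial content in the difference of GPX2 was not tested.

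GPX4, which reduces hydroperoxides of membrane phospholipids and protects cells from ferroptosis, an iron-dependent form of cell death, had 265 reads in intestine, 193 in muscle, 1900 at P5 and 2956 at P10. The level was 14.9 CPM (13.2 to 16.8) in intestine, 14.9 CPM (12.9 to 17.2) in muscle, 140 CPM (133.5 to 146) at P5 and 167 CPM (161 to 173) at P10. Both tissues lay within counting error of each other on CPM, and both organoid libraries lay above them. On the quantile-normalised scale intestine lay below muscle, at -1.20 (SE 0.13). The log2 difference from intestine was 3.13 (SE 0.10) at P5 and 3.40 (SE 0.10) at P10, or 9.37-fold (8.24 to 10.7) and 11.2-fold (9.86 to 12.7) on CPM. GPX4 lay between the median epithelial marker, at 2.49 at P5 and 2.14 at P10, and the highest.

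GPX1, the cytosolic glutathione peroxidase found in most cell types, went the other way. It had 1657 reads in intestine, 1342 in muscle, 387 at P5 and 1185 at P10, or 93.2 CPM (88.8 to 97.8), 104 CPM (98.4 to 110), 28.5 CPM (25.7 to 31.4) and 66.8 CPM (63.1 to 70.75). The order was muscle, intestine, P10 organoids and P5 organoids, with no overlap of the intervals of neighbours. P5 organoids were 3.28-fold lower than intestine on CPM (2.93 to 3.67), with a log2 difference of -1.93 (SE 0.08). P10 organoids were 1.39-fold lower (1.29 to 1.50), with a log2 difference of -0.79 (SE 0.06), which is within 2-fold.

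GPX3, the secreted glutathione peroxidase, had 219 reads in intestine, 319 in muscle, 0 at P5 and 9 at P10. The levels were 12.3 CPM (10.7 to 14.1) in intestine and 24.7 CPM (22.1 to 27.6) in muscle, against a limit of 0.221 CPM at P5 and 0.508 CPM (0.232 to 0.964) at P10. Both tissues had the RNA, and it was at or near 0 in organoids. The log2 difference from intestine was -3.71 (SE 0.34) at P10, and -5.33 or below at P5. On CPM it was at least 55.8-fold lower at P5 than in intestine and 24.3-fold lower at P10 (12.6 to 53.8). Stromal and smooth muscle markers moved in the same direction, but not every list of non-epithelial markers did. The erythroid markers summed to 6.02 CPM in intestine, 24.3 at P5 and 28.5 at P10. The 7 stromal markers summed to 1180 CPM in intestine, 1580 in muscle, 4.49 at P5 and 0.282 at P10, with COL3A1, DCN and LUM at 0 in both organoid libraries. The 5 smooth muscle markers summed to 1791 CPM in intestine, 12.6 at P5 and 7.56 at P10. The part of stromal and smooth muscle cells in the difference of GPX3 was not tested.

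TXNRD1, which keeps thioredoxin reduced, had 1076 reads in intestine, 259 in muscle, 2384 at P5 and 3519 at P10. The level was 60.5 CPM (57.0 to 64.3) in intestine, 20.1 CPM (17.7 to 22.6) in muscle, 175 CPM (168 to 182) at P5 and 198 CPM (192 to 205) at P10. Organoids were above intestine and intestine above muscle, with separate intervals throughout. The log2 difference from intestine was 1.32 (SE 0.05) at P5 and 1.50 (SE 0.05) at P10, below the median of the epithelial markers in each.

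SRXN1 encodes sulfiredoxin, which repairs peroxiredoxins that peroxide has over-oxidised. It had 936 reads in intestine, 194 in muscle, 2064 at P5 and 1173 at P10, or 52.7 CPM (49.3 to 56.1), 15.0 CPM (13.0 to 17.3), 152 CPM (145 to 158) and 66.2 CPM (62.4 to 70.1). P5 organoids stood above the other libraries. Their log2 difference from intestine was 1.34 (SE 0.06). That of P10 organoids was 0.060 (SE 0.067), within counting error, although on CPM P10 organoids were 1.26-fold higher (1.15 to 1.37).

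GCLC and GCLM encode the catalytic and the modifier subunit of glutamate-cysteine ligase, which carries out the rate-limiting step of glutathione synthesis. GCLC had 548 reads in intestine, 74 in muscle, 449 at P5 and 742 at P10, or 30.8 CPM (28.3 to 33.5), 5.73 CPM (4.50 to 7.19), 33.0 CPM (30.0 to 36.2) and 41.8 CPM (38.9 to 45.0). Muscle was low, and P5 organoids lay within counting error of intestine, with a log2 difference of -0.076 (SE 0.092). GCLM had 143 reads in intestine, 47 in muscle, 214 at P5 and 107 at P10, or 8.04 CPM (6.78 to 9.48), 3.64 CPM (2.67 to 4.84), 15.7 CPM (13.7 to 18.0) and 6.03 CPM (4.95 to 7.29). It was highest at P5, with a log2 difference from intestine of 1.09 (SE 0.18), which fell short of 2-fold under other scalings, at 0.96 with library totals and 0.79 with TMM. The subunits thus had different orders over the libraries, with GCLC highest at P10 and GCLM at P5.

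NQO1, a quinone reductase often used as a readout of NRF2 activity, had 755 reads in intestine, 271 in muscle, 5119 at P5 and 4804 at P10. The level was 42.5 CPM (39.5 to 45.6) in intestine, 21.0 CPM (18.6 to 23.6) in muscle, 376 CPM (366 to 387) at P5 and 271 CPM (263 to 279) at P10. Both organoid libraries were above both tissues. The log2 difference from intestine was 3.00 (SE 0.06) at P5 and 2.51 (SE 0.06) at P10, or 8.86-fold (8.21 to 9.58) and 6.38-fold (5.91 to 6.90) on CPM, above the median epithelial marker and below the highest in each.

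HMOX1 encodes the inducible haem oxygenase, which breaks down haem and is abundant in macrophages that clear red blood cells. It had 822 reads in intestine, 413 in muscle, 319 at P5 and 229 at P10, or 46.2 CPM (43.1 to 49.5), 32.0 CPM (29.0 to 35.2), 23.5 CPM (21.0 to 26.2) and 12.9 CPM (11.3 to 14.7). Intestine was highest on CPM, but on the quantile-normalised log2 scale the difference of intestine from muscle was -0.39 (SE 0.08). HMOX1 was the 1 of the 6 NRF2 targets that was lower than intestine at both passages. The log2 difference was -1.15 (SE 0.09) at P5, which came to -0.98 with library totals, and -2.10 (SE 0.10) at P10. The 8 macrophage and myeloid markers summed to 553 CPM in intestine, 68.3 in muscle, 6.18 at P5 and 1.35 at P10, with CSF1R, C1QA and C1QB at 0 in both organoid libraries. At P5 MRC1 still had 37 reads, CD68 21, CD163 11 and CD14 10. The part of macrophages in the difference of HMOX1 was not tested.

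**Figure D2:**
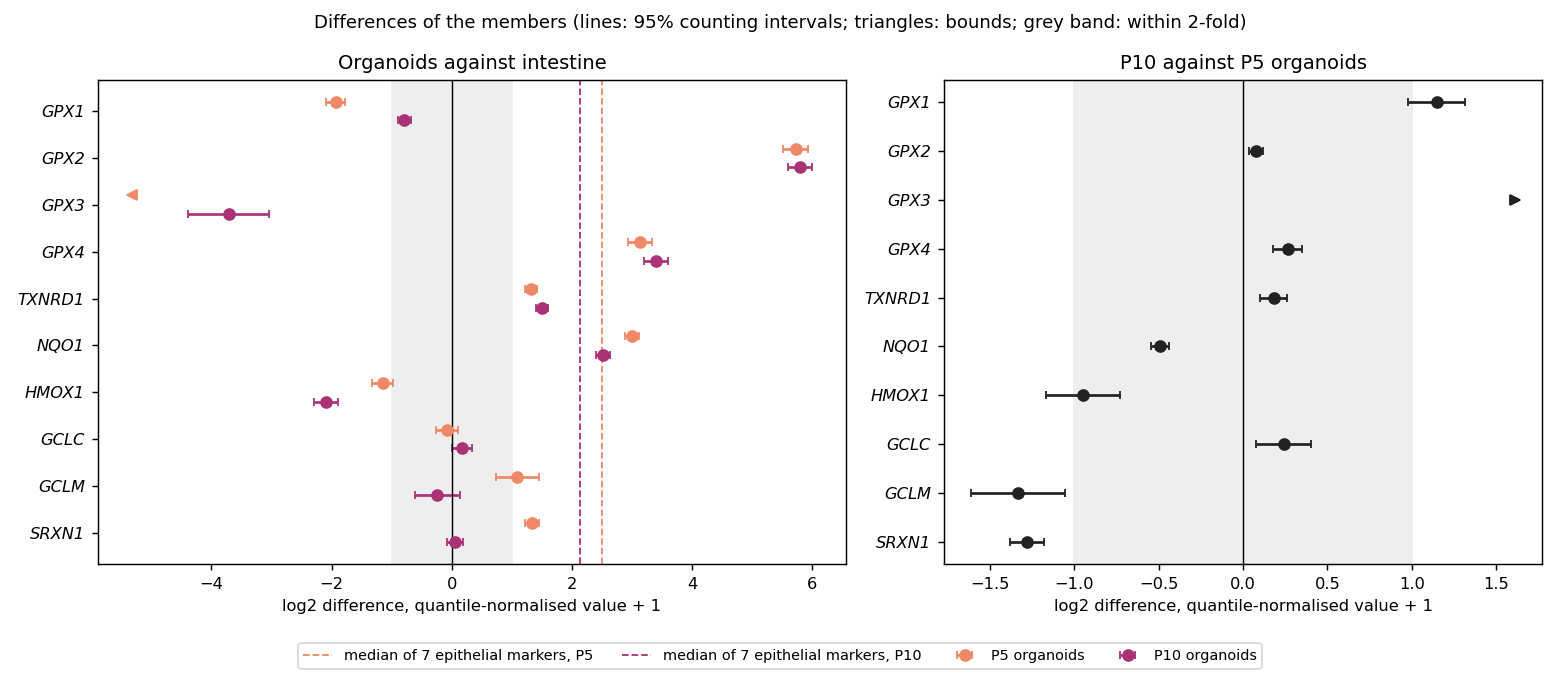
Log2 difference of each gene between organoids and intestine (left) and between P10 and P5 organoids (right), on quantile-normalised values with 1 added. Lines are 95% counting intervals, triangles are bounds against 3 reads, the grey band marks less than 2-fold and dashed lines mark the median of the 7 epithelial markers. GPX2 lay at 5.72 and 5.80 against intestine, and GCLM (-1.33) and SRXN1 (-1.28) were the genes past 2-fold lower at P10.

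Between passages, GPX1 was the 1 gene of 9 with at least 10 reads that was at least 2-fold higher at P10 than at P5, beside 16.1% of the 16131 rows. GCLM and SRXN1 were at least 2-fold lower, beside 16.6% of all rows. GPX1 was 2.35-fold higher on CPM (2.09 to 2.64), with a log2 difference of 1.15 (SE 0.09). GCLM had a log2 difference of -1.33 (SE 0.14) and SRXN1 of -1.28 (SE 0.05). HMOX1 lay just inside 2-fold, at -0.95 (SE 0.11), and NQO1 was -0.49 (SE 0.03). GPX2, GPX4, TXNRD1 and GCLC were higher at P10 by 0.076 to 0.27. These small gaps exceed counting error, but the spread between cultures of 1 passage is unknown, and passage and culture cannot be told apart. GPX3, with 9 reads against 0, was at least 2.30-fold higher on CPM and had too few reads to be counted. The median of all rows between the passages was 0.061. The enterocyte markers were 20.8-fold lower in sum at P10, and the 7 proliferation markers 1.83-fold higher.

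In intestine against muscle, 2 of the 10 genes (GPX2 and GCLC) were at least 2-fold higher, beside 32.3% of the 17559 rows, and 2 (GPX3 and GPX4) at least 2-fold lower, beside 27.0%. This comparison depended on the scaling more than any other. With library totals 6 genes were higher and 0 lower, as the median difference of all rows moved from 0.084 to 1.31 and the share of rows past 2-fold that were higher from 54.5% to 83.3%. With RN18S1 left out of the totals the median was still 0.99. GPX2 was at least 4.55 higher on the log2 scale and at least 60.3-fold higher on CPM. GCLC was 1.19 higher (SE 0.17), or 5.38-fold on CPM (4.22 to 6.96). GPX1 was -0.71 (SE 0.05), and past 2-fold lower with TMM (-1.17) and upper-quartile normalisation (-1.33). GPX3 was lower under each of the 5 scalings, by log2 differences from -2.17 to -0.9995. GPX4 was -1.20 (SE 0.13) with quantile normalisation and -0.0032 with library totals, so its level in intestine relative to muscle is not settled by these libraries. Relative to the median of all rows under the same scaling, GPX1, GPX3, GPX4, NQO1, HMOX1 and GCLM lay below it and GCLC, SRXN1 and TXNRD1 above it in all 5.

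**Figure D3:**
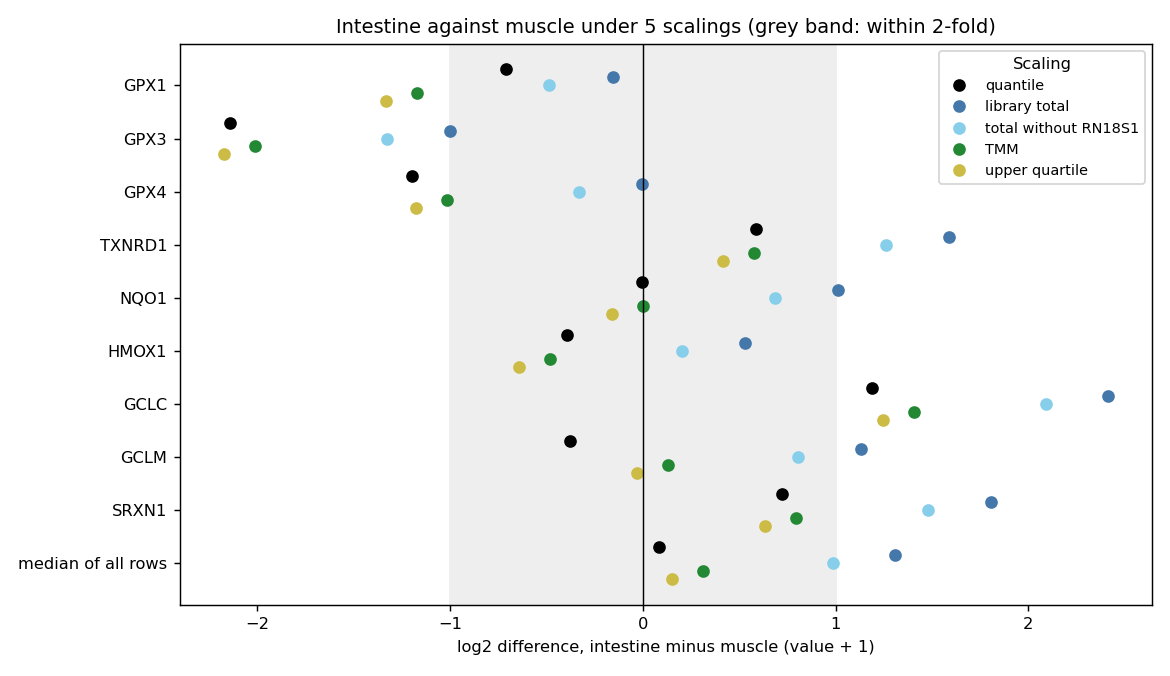
Log2 difference between intestine and muscle for 9 of the 10 genes (GPX2, a bound, is left out) and for the median of all rows, under 5 scalings shown as colours. Each gene lay higher with library totals than with quantile normalisation, as did the median of all rows (0.084 to 1.31), whereas with TMM and upper-quartile normalisation GPX1, TXNRD1 and HMOX1 lay lower.

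The genes around these enzymes were taken as 12 lists of 151 symbols, of which 145 were found, on 147 rows. At least 10 reads in either library were present for 142 rows in each organoid comparison. At P5 39 rows (27.5%) exceeded intestine by 2-fold or more and 24 (16.9%) lay as far below it, beside 24.9% and 22.8% of all rows. At P10 it was 43 (30.3%) and 30 (21.1%), beside 28.0% and 26.1%. Between the passages, 13 of 135 (9.63%) were higher at P10 and 26 (19.3%) lower, beside 16.1% and 16.6% of all rows. The counts of single lists against intestine, which follow, are to be read against the same shares of all rows, and none was tested.

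Of the genes of glutathione synthesis and recycling, 6 of 14 were higher and 2 lower at P5, beside 24.9% and 22.8% of all rows, and 7 and 1 at P10, beside 28.0% and 26.1%. GSR, the reductase that regenerates glutathione, had 358 reads in intestine, 106 in muscle, 2995 at P5 and 4948 at P10. Its log2 difference from intestine was 3.33 (SE 0.09) and 3.69 (SE 0.09), close in size to that of GPX4. SLC7A11, the cystine importer that feeds glutathione synthesis, had 151 reads in intestine, 155 at P5 and 746 at P10, a difference between passages of 1.70 (SE 0.12). GGT1, which cleaves extracellular glutathione, was 4.57 higher at P5 than in intestine and 2.53 higher at P10. Of the genes that supply NADPH, the electron donor of GSR and TXNRD1, 3 of 9 were higher at P5 (24.9% of all rows) and 6 at P10 (28.0%), with 0 lower. PGD, of the pentose phosphate pathway, was higher by 2.21 and 2.79. MTHFD2, counted as higher at both passages, had 1.86 CPM in intestine, 3.09 at P5 and 2.31 at P10, within 2-fold on that scale.

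Among thioredoxins and peroxiredoxins, 5 of 15 were higher and 1 lower at P5, and 7 and 2 at P10, where 24.9% and 28.0% of all rows were higher. PRDX1, a cytosolic peroxiredoxin that SRXN1 repairs, was 2.63 higher (SE 0.02) at P5 and 2.68 (SE 0.02) at P10, and TXN, its thioredoxin partner, was 1.81 and 1.88 higher. TXNRD2, the mitochondrial thioredoxin reductase, had 116 reads in intestine, 32 at P5 and 462 at P10, a gap between passages of 3.03 (SE 0.23) that TXNRD1 (0.18) did not show. Of the superoxide dismutases and catalase, 0 of 5 were higher and 2 lower at each passage, where 22.8% and 26.1% of all rows were lower. CAT, which breaks down hydrogen peroxide in peroxisomes, was -2.10 at P5 and -2.45 at P10, and the extracellular SOD3 had 169 reads in intestine, 0 at P5 and 1 at P10.

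Of the other selenoproteins, 1 of 14 was higher and 4 lower at P5, and 1 and 5 at P10, beside 24.9% and 22.8%, and 28.0% and 26.1%, of all rows. The higher one was SELENOO, at 1.27 (SE 0.23) and 1.58 (SE 0.22). It had 4.44 CPM in intestine, 8.01 at P5 and 11.1 at P10, so at P5 it was within 2-fold on that scale. SELENOW was -2.55 and -2.40 against intestine, and SELENOP, the secreted selenium carrier, had 3577 reads in intestine, 3855 at P5 and 416 at P10. Of the genes for selenocysteine synthesis and insertion, 4 of 11 were higher at each passage (24.9% and 28.0% of all rows), with 0 lower at P5 and 1 lower at P10. Some of these calls rest on few reads. PSTK, counted higher at P5 and lower at P10, had 14 reads in intestine, 18 at P5 and 0 at P10. Against a floor of 3 reads its P10 difference was at most 0, so no drop is shown. LRP2, counted higher at both passages, had 1, 17 and 11 reads. LRP8, a receptor for SELENOP, had 10 reads in intestine, 1 in muscle, 658 at P5 and 1416 at P10, higher than intestine by 7.02 (SE 0.41) and 7.67 (SE 0.40). EEFSEC, the elongation factor that delivers selenocysteine, differed between passages by 3.06 (SE 0.15). Of the other glutathione peroxidases, GPX8 had 74 reads in intestine, 554 in muscle, 1 at P5 and 0 at P10, and GPX7 had 16, 18, 13 and 109.

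Of the NRF2 pathway regulators, 3 of 14 were higher and 1 lower at P5, and 3 and 2 at P10, no larger a share higher than the 24.9% and 28.0% of all rows. NFE2L2 itself had 892 reads in intestine, 627 in muscle, 1189 at P5 and 1406 at P10, and KEAP1 had 1359, 1452, 1349 and 3027. On the quantile-normalised scale both were within 2-fold of intestine in each organoid library, NFE2L2 at 0.58 and 0.38 and KEAP1 at 0.13 and 0.93. On CPM, KEAP1 was past 2-fold higher at P10, at 171 CPM against 76.5 in intestine. They are named for their place in the pathway, after their values were seen. MAFG, a small MAF partner of NRF2, was 1.59 and 1.09 higher than in intestine, and BACH2, a repressor of the same family as BACH1, was -1.01 at P5 and -4.02 or below at P10.

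Of the other NRF2 target candidates, 3 of 21 were higher and 7 lower at P5, beside 24.9% and 22.8% of all rows, and 4 and 8 at P10, beside 28.0% and 26.1%. OSGIN1, a stress-responsive gene, was 4.15 and 3.99 higher than in intestine, whereas EPHX1, an epoxide hydrolase, was -3.15 and -2.24. ABCC2, an apical exporter of conjugates, had 3583 reads in intestine, 13 in muscle, 198 at P5 and 72 at P10. Of the glutathione transferases, 4 of 17 were higher and 4 lower at P5 and 4 and 3 at P10, counts near or below the same shares. GSTA1 was -3.05 and -3.81 and GSTA2 was 3.49 and 3.29, but reads with several alignments were counted, so the levels of these closely related genes are uncertain.

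Of the haem and iron genes, 5 of 10 were higher and 0 lower at P5, beside 24.9% and 22.8% of all rows, and 3 and 3 at P10, beside 28.0% and 26.1%. FTL, counted as higher at P5, had 655 CPM in intestine and 1244 at P5, within 2-fold on that scale. FECH, counted as higher at both passages, had 0 reads in intestine, 21 at P5 and 16 at P10. BLVRB, a reductase that acts downstream of haem breakdown, was 1.31 and 1.98 higher than in intestine, the opposite direction to HMOX1. SLC40A1, the iron exporter ferroportin, was -3.26 (SE 0.08) between the passages. In the list on lipid peroxidation and ferroptosis, 4 of 10 were higher and 2 lower at P5, and 3 and 2 at P10, beside the same shares. MBOAT1, a phospholipid acyltransferase, was 4.36 and 3.02 higher than in intestine, and ALOX5, the lipoxygenase of leukocytes, had 114 reads in intestine, 1 at P5 and 0 at P10.

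**Figure D4:**
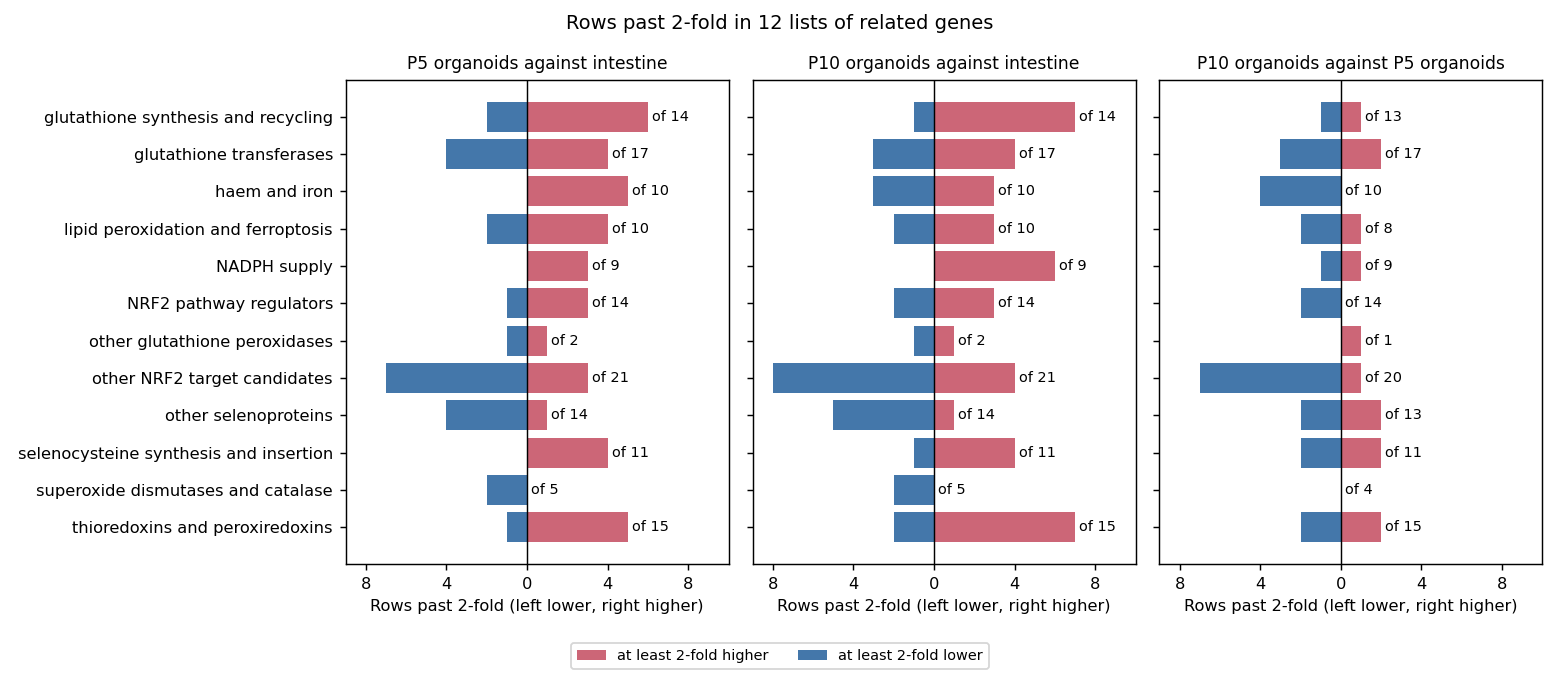
Number of rows at least 2-fold higher (right, red) or lower (left, blue) in the 12 lists of related genes, for organoids against intestine and for P10 against P5 organoids, with the number tested beside each bar. NADPH supply had 6 of 9 rows higher and 0 lower at P10, and the other NRF2 target candidates 4 of 21 higher and 8 lower, beside 28.0% of all rows higher and 26.1% lower.

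Among the 10 genes, GPX2 had the widest range over the libraries in its family, at least 10.3 on the log2 scale against 3 reads in muscle, and NQO1 among the others, at 3.00. The pattern of each was compared with 15050 rows of at least 50 reads in any library, by the Euclidean distance of the 4 log2 values centred on their mean, with 0 reads entered as a log2 value of 0. The distances to GPX2 rest on that value, since GPX2 and its 3 nearest rows all had 0 reads in muscle. Nearest to GPX2 was KRT18, a keratin of simple epithelia, at a distance of 1.74. It had 825 reads in intestine, 0 in muscle, 7790 at P5 and 33299 at P10, followed by LOC100295842 at 2.18 and TNS4 at 2.29. Nearest to NQO1 was KIF23, a motor protein of cell division, at 0.16, followed by FADD at 0.20 and LRRC75A at 0.22. KIF23 had 227, 59, 1444 and 1228 reads in intestine, muscle, P5 organoids and P10 organoids. With 4 libraries, many rows share a shape, so a near pattern is a description only.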

How the data were processed

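Counts deposited by the authors were used, 1 file per library, whole numbers of reads per gene symbol without normalisation. Per the paper and the labels, 500 ng of total RNA went into each QuantSeq 3′ library, reads were aligned with Bowtie2, and unique and multiple alignments were counted with Bedtools. The genome build, annotation and versions are not given in the sources used here, so no coordinates are printed. In the RefSeq table of ARS-UCD2.0 TXNRD1 overlaps EID3, which had at most 36 reads. The paper gives quantile normalisation in edgeR as its method. That package has no such function for counts, so the scaling used here is a reading of that statement.

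The 22200 rows with a read were quantile-normalised over the 4 libraries, with ties at their mean rank, and then taken as log2(value + 1). Standard errors were derived from each count plus and minus its square root. A row was counted past 2-fold if its log2 difference was at least 1 in size and the larger of its 2 counts was 10 or more. A floor of 3 reads was used for bounds but not for these counts, where 0 reads had a log2 value of 0. Rows with few reads could thus be counted past 2-fold while their bound was not. AKR1B10, with 10 reads in intestine and 1 at P5, was counted lower at P5 with a bound of -0.23. CPM intervals are exact (Clopper-Pearson) and those of CPM folds conditional binomial. The genes and lists were chosen with earlier results of these data known. From each list, genes were named by a fixed rule, up to 4 past 2-fold in the same direction at both passages against intestine, 3 between passages and 2 between tissues, if the larger count was 50 or more, and some of these are described. The rule also named the 3 nearest patterns to the widest-ranging gene of each group. The 13 lists of cell markers were used for levels and, as benchmarks, for differences, without tests. The alternatives were 4 other scalings, pseudocounts of 0.1 and 5, 3 other filters, rows summed by symbol and 50 reads in place of 10. The functions were tested on simulated data. The software was R 4.3.3 with limma 3.58.1 and edgeR 4.0.16, and Python 3.11.15 with scipy 1.17.1, pandas 2.3.3, numpy 2.4.6 and, for figures, matplotlib 3.10.9.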

Additional observations from a re-analysis of the deposited data

Results flagged for a closer look

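GCLM and GCLC lay on opposite sides of intestine at the 2 passages. For GCLM the log2 difference was 1.09 at P5 and -0.24 at P10 (SE 0.19). The P10 value is within counting error on the quantile scale, but on CPM P10 was below intestine, at a ratio of 0.750 (0.578 to 0.971). For GCLC it was -0.076 at P5 and 0.16 at P10 (SE 0.085), both within counting error on the quantile scale. The CPM ratio of GCLC at P10 was 1.36 (1.21 to 1.52). With library totals GCLC at P5 was 0.099, on the same side as at P10. With 1 library a passage, these differences between passages were not tested.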

How the results depend on the processing

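The 8 counts of genes past 2-fold were recomputed under 11 alternatives, and 70 of the 88 values did not change. The values that moved by over 1.5 times were mainly of intestine against muscle. With library totals 6 genes were higher and 0 lower, with totals without RN18S1 4 and 1, and with a minimum of 10 reads in all 4 libraries, which leaves out GPX2 and GPX3, 1 and 1. Under that filter 1 gene was lower in P10 organoids than in intestine, HMOX1. Of the 40 single differences, 4 changed sign and 10 changed side of 2-fold. The sign changes were GCLC in P5 organoids against intestine (-0.076, or 0.099 with library totals) and, in intestine against muscle, NQO1 (-0.16 to 1.02), HMOX1 (-0.64 to 0.53) and GCLM (-0.38 to 1.13). No gene past 2-fold with quantile normalisation changed sign, but in intestine against muscle NQO1 and GCLM were past 2-fold higher with library totals. Depth limits GPX3 in organoids and GCLM in muscle, with 9 reads or fewer and 47 reads. No paired analysis was possible because each group has 1 library.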
